A study of Homo sapiens with 8 samples.

Results

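The 10 transcription factor genes SPI1, CEBPA, CEBPE, GFI1, IKZF1, LYL1, MYB, RUNX1, IRF8 and LMO2, which act in myeloid and other blood cells, were followed across 4 human cell lines. They were chosen by symbol, with earlier results of these data known, and all 10 were found among the 23615 gene symbols of the table. U937 is labelled leukemic and EaHy endothelial, both grown in RPMI medium with serum. PC3M is labelled prostate cancer, was grown as PC3M-LN4 in the same medium with L-glutamine, and HEK293 is an embryonic kidney line grown in DMEM. Each line gave 2 libraries of total RNA after depletion of ribosomal RNA, from cells collected in duplicate, and the labels name no treatment, genotype change or separate cultures. The study set the lines that bind epoxyeicosatrienoic acids (U937, EaHy and PC3M) against HEK293, which does not, to look for a receptor. Values were FPKM (fragments scaled to gene length and to the mapped fragments of the library), so levels can be compared between genes per length.

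Blood cell identity is set by small groups of transcription factors that bind together at the enhancers of lineage genes and often at each other's. PU.1, the product of SPI1, and the C/EBP proteins open the myeloid program, and GFI1 and IRF8 bias it towards granulocytes or monocytes. RUNX1, MYB and IKZF1 act earlier, in stem and progenitor cells. LYL1 and LMO2 sit in complexes of basic helix-loop-helix and LIM proteins that are also used by endothelium, which shares its embryonic origin with blood.

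The summed blood markers were highest in U937 and the summed endothelial markers in EaHy. The summed level of 8 blood and myeloid markers was 843 and 2390 FPKM in U937, 297 and 169 in EaHy, 1.11 to 2.5 in PC3M and 0.393 to 3.65 in HEK293. SRGN alone held 408 and 1540 FPKM of it in U937 and 232 and 120 in EaHy. CD14, a monocyte surface marker, stood at 0.114 and 0.171 FPKM in U937. The blood marker CD53 was no lower in EaHy (21.5 and 31.5 FPKM) than in U937 (7.22 and 30.8), and LAPTM5, SRGN and CD33 were also present in EaHy, while PTPRC and CD4 were at most 0.818 FPKM. The summed level of 8 endothelial markers was 342 and 581 FPKM in EaHy and at most 19 elsewhere. In PC3M the prostate marker KLK3 was listed at 0 and 0.0138 FPKM, while the keratin KRT19 stood at 177 and 57.8 FPKM. Epithelial and prostate markers summed to 455 and 127 FPKM in PC3M and to 694 and 427 FPKM in EaHy, and neuronal and embryonic kidney markers to 1000 and 1350 FPKM in HEK293 and at most 499 elsewhere. EaHy replicate 2 and both PC3M libraries stood apart from the other 5: RMRP, a noncoding RNA of RNase MRP, stood at 276000 to 507000 FPKM in these 3 and at 12.3 to 1130 FPKM in the others. The median log2 level of the replication histone genes was 7.99 to 9.71 in these 3 histone-rich libraries and 0.8 to 2.83 in the others. Small RNA genes took 65.2% to 83.6% of all FPKM there, against 18.4% to 51.4%. Both PC3M libraries and 1 of 2 EaHy libraries are among them, so in PC3M this library difference and the cell line cannot be told apart. The depth in counts is unknown.

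U937 held the highest level of each of the 10 factors. The lower U937 library was above all 6 libraries of the other lines for 10 of 10, against 11.6% of the 16295 genes tested. The 10 were chosen with earlier results of these data known, so this count is a description. In U937 replicate 1 the 10 levels ran from 1.93 FPKM for CEBPE to 115 FPKM for GFI1, with a median of 50.5. In replicate 2 they ran from 6.41 FPKM for CEBPE to 217 for CEBPA, with a median of 103. By contrast the median level of the 10 was 1.08 and 0.0263 FPKM for EaHy, 0.11 and 0.0999 for PC3M and 1.05 and 0.946 for HEK293. As bulk RNA, fewer cells of a type and less RNA per cell cannot be told apart. By level, GFI1, MYB, CEBPA, LYL1, SPI1, IRF8, LMO2 and IKZF1 each overlapped their neighbour in the U937 order, while IKZF1 stood above RUNX1, and RUNX1 above CEBPE, without overlap. Within U937, 9 of the 10 were higher in replicate 2, against 58.5% of all genes tested. The median difference in log2(FPKM + 0.5) was 0.77, against 0.22 over all genes tested. Small RNA genes took 51.4% of all FPKM in replicate 1 and 19.9% in replicate 2. Outside small RNA and histone genes the FPKM summed to 304086 and 501202. Whether this composition made the difference was not tested.

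**Figure D1:**
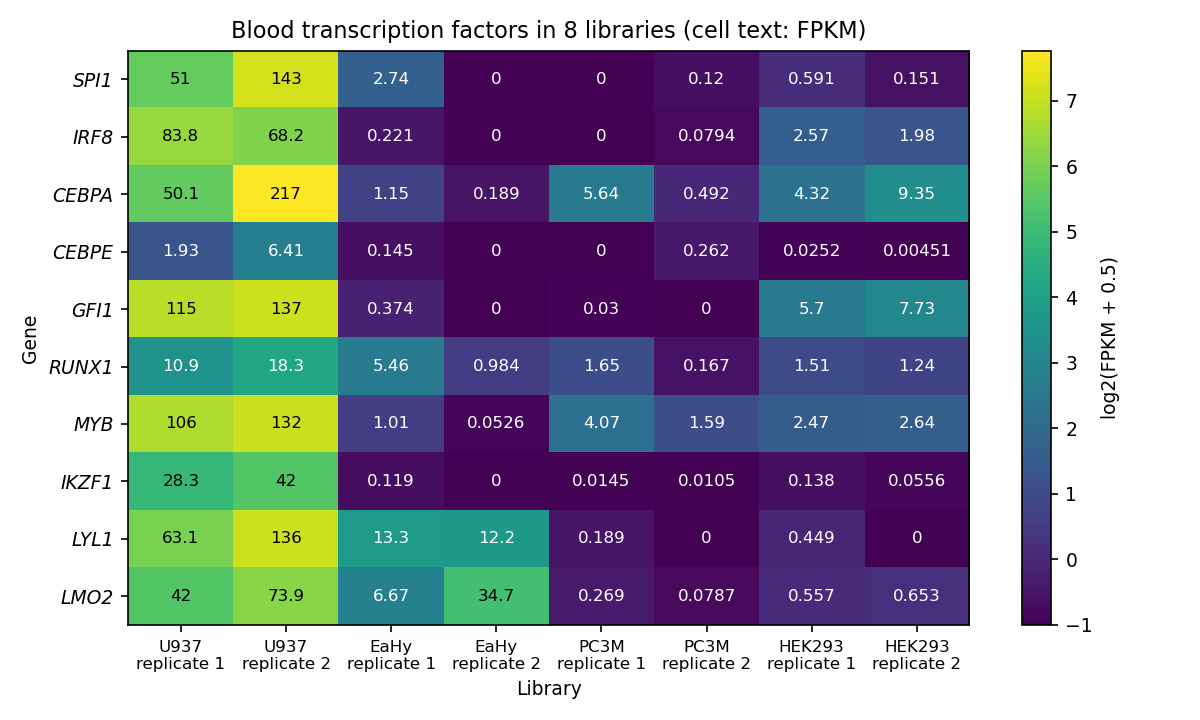
FPKM of the 10 factors (rows) in the 8 libraries (columns), coloured by log2(FPKM + 0.5), with the FPKM written in each cell. The 2 U937 columns hold the highest value of every row. In EaHy LYL1 and LMO2 exceeded 6 FPKM, and RUNX1 came next at 5.46 and 0.984 FPKM.

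Differences between lines were tested with limma on log2(FPKM + 0.5), with p-values adjusted by Benjamini-Hochberg over all 16295 genes and called under 0.05. Against HEK293, 10 of 10 factors were higher in U937, where 4.47% of all genes were called higher and 10.6% lower. Against EaHy, 8 of 10 were higher (5.95% of all genes were called higher and 6.77% lower), and RUNX1 and LMO2 were not called. Against PC3M, 10 of 10 were higher (17.2% of all genes were higher and 4.57% lower). These 3 comparisons share the U937 libraries. The median log2 difference of the 10 was 5.03, 6.03 and 6.25 against HEK293, EaHy and PC3M, where the median over all genes was -0.22, 0.38 and 0.94. CEBPE and IKZF1 passed the filter on low values through the U937 libraries alone, so they could hardly appear without a difference, and their tests and the counts are a description. Without U937 replicate 2 the counts were 6, 5 and 6, since CEBPE and IKZF1 then failed the filter and CEBPA, RUNX1 or LYL1 lost their call. They were 7, 6 and 7 without U937 replicate 1, and 7 against HEK293 without either HEK293 library.

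**Figure D2:**
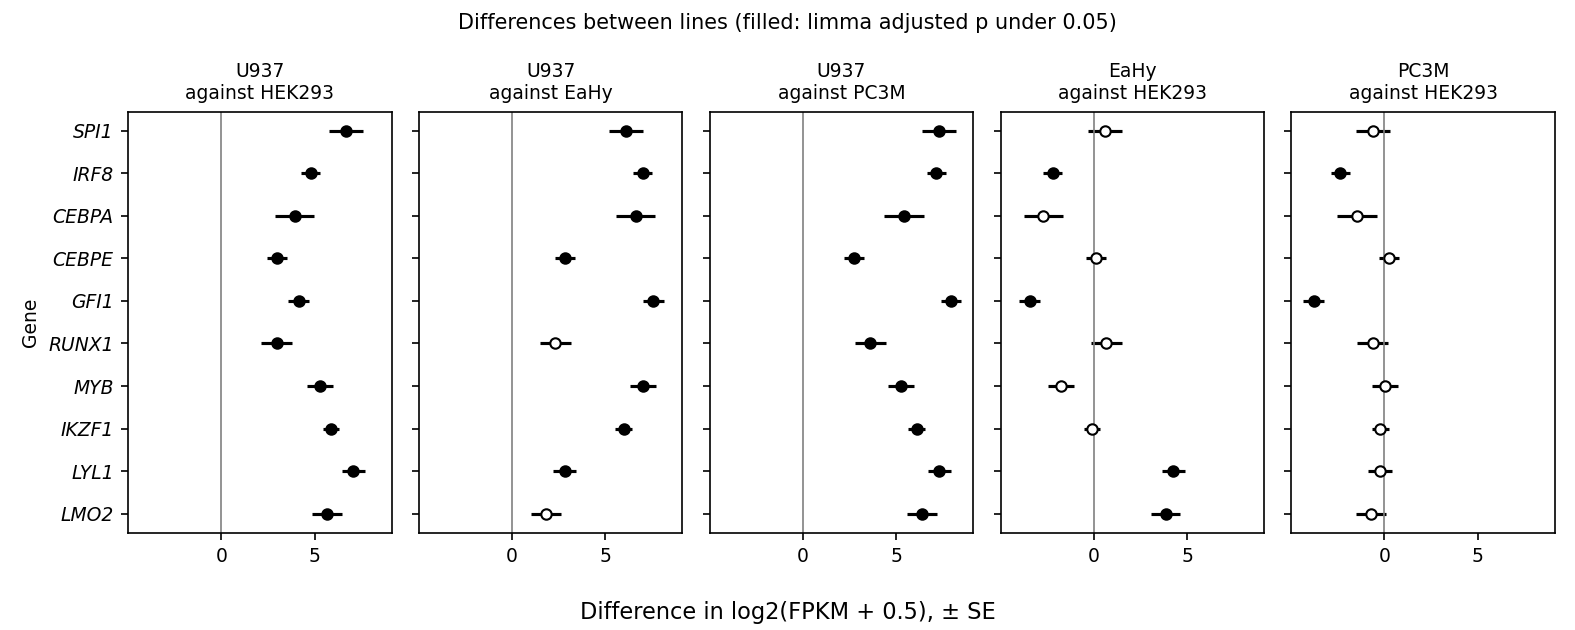
Difference in log2(FPKM + 0.5) between lines for each factor (± SE, n = 2 libraries per line) in 5 comparisons; filled points passed a limma adjusted p under 0.05. All points lie right of 0 in the 3 U937 panels. In the panel of EaHy against HEK293 the filled points are LYL1 and LMO2 to the right and GFI1 and IRF8 to the left. The open points there lie on both sides, from -2.69 for CEBPA to 0.67 for RUNX1.

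SPI1 and IRF8 encode PU.1, an ETS factor needed for monocytes and granulocytes, and an interferon regulatory factor that pairs with PU.1 on DNA and favours monocytes and dendritic cells. SPI1 was listed at 51 and 143 FPKM for U937, 2.74 and 0 for EaHy, 0 and 0.12 for PC3M and 0.591 and 0.151 for HEK293. Every library outside U937 stayed under 3 FPKM, and in EaHy the signal came from replicate 1. SPI1 was higher in U937 by 6.67 ± 0.91 against HEK293, 6.08 ± 0.91 against EaHy and 7.27 ± 0.91 against PC3M in log2 units (± SE of the fit over 2 libraries a line; limma adjusted p = 0.0021, 0.0034 and 0.002). IRF8 was listed at 83.8 and 68.2 FPKM for U937, 0.221 and 0 for EaHy, 0 and 0.0794 for PC3M and 2.57 and 1.98 for HEK293. Both HEK293 libraries held a low IRF8 level, above every EaHy and PC3M library. IRF8 was higher in U937 by 4.79 ± 0.50, 6.99 ± 0.50 and 7.14 ± 0.50 against HEK293, EaHy and PC3M (limma adjusted p = 0.00088, 0.00036 and 0.00034). The SPI1 and IRF8 calls in U937 held in every alternative run.

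Upstream sequence was read from RefSeq promoters on GRCh38.p14, which held 13 start windows for 8 of the 10 genes; SPI1 and LMO2 had none. The 250 bases before each start were searched on both strands for 4 short motifs: GATAA (GATA factors), GAGGAA (PU.1), TGTGGT (RUNX) and GCAAT (C/EBP). The motifs do not overlap in the sequences shown. GATAA was in 3 of the 13 windows and 20.4% of all 35116 promoters, GAGGAA in 5 and 23.6%, TGTGGT in 3 and 11%, and GCAAT in 3 and 21.3%. A match is only a run of letters, not a bound site. The CEBPA and MYB windows and the first IKZF1 window held none of the 4 motifs. The 3 windows printed with IRF8, CEBPE and LYL1 were chosen after the search, as examples of windows that hold one or more of the motifs. The upstream window of the first IRF8 start, chr16:85902580-85902829 on the plus strand, held GATAA and TGTGGT, in capitals:
IRF8: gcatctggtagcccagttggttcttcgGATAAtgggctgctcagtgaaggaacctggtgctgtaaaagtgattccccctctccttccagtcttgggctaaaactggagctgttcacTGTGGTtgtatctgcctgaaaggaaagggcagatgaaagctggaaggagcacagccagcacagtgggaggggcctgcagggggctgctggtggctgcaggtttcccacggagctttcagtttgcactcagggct

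CEBPA and CEBPE encode basic leucine zipper factors of granulocyte development, CEBPA at the progenitor stage and CEBPE in late granule formation. CEBPA was listed at 50.1 and 217 FPKM for U937, 1.15 and 0.189 for EaHy, 5.64 and 0.492 for PC3M and 4.32 and 9.35 for HEK293. Its replicates differed 4.34 times in U937 and 11.5 times in PC3M, yet the U937 libraries were above all others. CEBPA was higher in U937 by 3.93 ± 1.06, 6.62 ± 1.06 and 5.41 ± 1.06 against HEK293, EaHy and PC3M (SE, n = 2, limma adjusted p = 0.04, 0.0045 and 0.013). The call against HEK293 was lost with a pseudocount of 0.1, with no filter, with a single prior spread, and on leaving out U937 replicate 2 (2.88) or either HEK293 library (3.41 without replicate 1, 4.45 without replicate 2), and its adjusted p ranged from 0.0046 to 0.25. The call against PC3M was lost without U937 replicate 2 (4.36) or PC3M replicate 2 (4.09).

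CEBPE was the lowest of the 10 in U937, at 1.93 and 6.41 FPKM. Elsewhere it was listed at 0.145 and 0 FPKM for EaHy, 0 and 0.262 for PC3M and 0.0252 and 0.00451 for HEK293, so the lines did not overlap with U937. The log2 differences were 2.99 ± 0.53, 2.85 ± 0.53 and 2.73 ± 0.53 against HEK293, EaHy and PC3M (limma adjusted p = 0.0062, 0.0087 and 0.012). CEBPE passed the filter through U937 alone, so these tests are a description. The call against HEK293 was lost without HEK293 replicate 1 (3.02) or replicate 2 (2.96), and that against PC3M with quantile normalization (1.73). The call against EaHy was lost with only the 2 lines fitted, and without the 3 histone-rich libraries (2.67). The window before the CEBPE start, chr14:23119256-23119505 on the minus strand, held GAGGAA, in capitals:
CEBPE: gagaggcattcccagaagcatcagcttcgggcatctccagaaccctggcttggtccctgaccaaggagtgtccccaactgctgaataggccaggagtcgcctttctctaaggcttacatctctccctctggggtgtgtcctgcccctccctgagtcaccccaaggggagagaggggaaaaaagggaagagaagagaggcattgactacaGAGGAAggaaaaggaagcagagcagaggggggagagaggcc

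GFI1 encodes a zinc finger repressor that favours granulocytes over monocytes. It was listed at 115 and 137 FPKM for U937, 0.374 and 0 for EaHy, 0.03 and 0 for PC3M and 5.7 and 7.73 for HEK293. The lines fell into 3 levels without overlap: U937, then HEK293, then EaHy with PC3M. GFI1 was higher in U937 by 4.14 ± 0.55, 7.57 ± 0.55 and 7.93 ± 0.55 against HEK293, EaHy and PC3M (SE, n = 2, limma adjusted p = 0.0019, 0.00036 and 0.00034), in every alternative run.

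RUNX1 encodes the DNA-binding subunit of core-binding factor, needed for the first blood stem cells, and CBFB its partner. RUNX1 was listed at 10.9 and 18.3 FPKM for U937, 5.46 and 0.984 for EaHy, 1.65 and 0.167 for PC3M and 1.51 and 1.24 for HEK293. Every library held some RUNX1, and the lower U937 library was 1.99 times the highest library elsewhere. RUNX1 was higher in U937 by 2.97 ± 0.83 against HEK293 and 3.61 ± 0.83 against PC3M (limma adjusted p = 0.045 and 0.021), and its difference of 2.30 ± 0.83 from EaHy did not pass (0.13; 0.03 to 0.59 over the alternatives). It passed against EaHy without EaHy replicate 1 (3.30). Its call against HEK293 was lost without U937 replicate 1 (3.33) or 2 (2.60) or HEK293 replicate 1 (3.07) or 2 (2.86), and with a pseudocount of 0.1 (3.28), no filter or a single prior spread. Against PC3M it was lost without U937 replicate 1 (3.98) or 2 (3.25) or PC3M replicate 2 (2.77), and with no filter. CBFB, chosen after its values were seen, was listed at 15.8 and 37 FPKM for U937, 33.3 and 20.5 for EaHy, 18.7 and 3.72 for PC3M and 14.6 and 22.9 for HEK293, so the lines overlapped.

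MYB and IKZF1 encode c-Myb, which keeps progenitors dividing, and Ikaros, a zinc finger factor of lymphoid and early blood cells. MYB was listed at 106 and 132 FPKM for U937, 1.01 and 0.0526 for EaHy, 4.07 and 1.59 for PC3M and 2.47 and 2.64 for HEK293. It was higher in U937 by 5.28 ± 0.69, 7.02 ± 0.69 and 5.26 ± 0.69 against HEK293, EaHy and PC3M (SE, n = 2, limma adjusted p = 0.0018, 0.00059 and 0.0024). PC3M and HEK293 overlapped for MYB, with a difference of 0.02 ± 0.69. IKZF1 was listed at 28.3 and 42 FPKM for U937 and at most 0.138 FPKM in the other 6 libraries. By ratio IKZF1 showed the widest gap of the 10, the lower U937 library standing 205 times above the highest elsewhere, which held 0.138 FPKM. Its log2 differences were 5.88 ± 0.44, 5.97 ± 0.44 and 6.09 ± 0.44 against HEK293, EaHy and PC3M (limma adjusted p = 0.00045, 0.00036 and 0.00034). On this scale it was not the widest: LYL1 differed by 7.08 against HEK293, and GFI1 by 7.57 against EaHy and 7.93 against PC3M. The U937 calls of MYB held in every alternative run, and those of IKZF1 in each alternative in which it was tested. IKZF1 passed the filter through U937 alone and was not tested when either U937 library was left out. Its tests and their stability are therefore a description. Genes on the opposite strand overlap MYB, IKZF1 and CEBPA, and without a stated strand their reads cannot be told apart.

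LYL1 and LMO2 were higher in U937 and in both EaHy libraries than in any PC3M or HEK293 library. RUNX1 also reached 5.46 FPKM in EaHy replicate 1, but its 0.984 FPKM in replicate 2 lay below both HEK293 libraries. LYL1 encodes a basic helix-loop-helix factor that pairs with E proteins, and LMO2 a LIM protein that bridges such pairs to GATA factors without binding DNA itself. LYL1 was listed at 63.1 and 136 FPKM for U937, 13.3 and 12.2 for EaHy, 0.189 and 0 for PC3M and 0.449 and 0 for HEK293. LMO2 was listed at 42 and 73.9 FPKM for U937, 6.67 and 34.7 for EaHy, 0.269 and 0.0787 for PC3M and 0.557 and 0.653 for HEK293. For both, the 2 EaHy libraries lay between U937 and the other lines without overlap, and for LMO2 EaHy replicate 2 came close to the lower U937 library, at 59.8% of the U937 mean against 11.5% in replicate 1.

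Against HEK293, 2 of 10 factors were higher in EaHy, where 4.55% of all genes were, and 2 were lower, where 9.8% were. LYL1 was higher in EaHy by 4.27 ± 0.63 and LMO2 by 3.85 ± 0.80 (SE, n = 2, limma adjusted p = 0.0033 and 0.014). LYL1 lost this call without HEK293 replicate 2 (3.81), and LMO2 without EaHy replicate 2 (2.70) or HEK293 replicate 1 (3.78) or 2 (3.91). Between U937 and EaHy, LYL1 was higher in U937 by 2.81 ± 0.63 (limma adjusted p = 0.022), a call lost without U937 replicate 2 (2.26) or EaHy replicate 2 (2.75), with a pseudocount of 0.1, with only the 2 lines fitted, and without the 3 histone-rich libraries. The LMO2 difference of 1.82 ± 0.80 did not pass (0.2; 0.031 to 0.62 over the alternatives), and it was 2.97 and passed without EaHy replicate 2, also without all 3 histone-rich libraries. Against HEK293 and PC3M, LYL1 was higher in U937 by 7.08 ± 0.63 and 7.31 ± 0.63, and LMO2 by 5.67 ± 0.80 and 6.40 ± 0.80 (limma adjusted p = 0.00061, 0.00046, 0.0023 and 0.0019). The window before the LYL1 start, chr19:13102859-13103108 on the minus strand, held TTCCTC and TTATC, the reverse complements of GAGGAA and GATAA, in capitals:
LYL1: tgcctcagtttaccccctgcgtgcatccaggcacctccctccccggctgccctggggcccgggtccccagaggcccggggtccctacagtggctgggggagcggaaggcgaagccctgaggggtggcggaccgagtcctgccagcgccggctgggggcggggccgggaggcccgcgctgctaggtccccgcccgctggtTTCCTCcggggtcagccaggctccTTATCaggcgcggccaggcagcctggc

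GFI1 and IRF8 were the 2 factors lower in EaHy than in HEK293, by -3.43 ± 0.55 and -2.20 ± 0.50 on the log2 scale (limma adjusted p = 0.0048 and 0.022). They were also the 2 of 10 lower in PC3M, by -3.79 ± 0.55 and -2.36 ± 0.50 (limma adjusted p = 0.004 and 0.016), where 25.3% of all genes were called lower, so their number is close to the background. No factor was higher in PC3M, where 2.39% of all genes were, by limma at the adjusted threshold, and 27.7% of all genes were called in either direction. At an unadjusted p under 0.05, 2 of 10 factors and 44.6% of all genes passed in either direction. These comparisons share the HEK293 libraries. Without HEK293 replicate 1 or 2, no factor was called lower in either line, with GFI1 at -3.64 and -3.23 in EaHy and -4.00 and -3.59 in PC3M, and IRF8 at -2.05 and -2.35 in EaHy and -2.20 and -2.51 in PC3M. IRF8 also lost its call in EaHy without EaHy replicate 2 or all 3 histone-rich libraries (-1.94 in both), with upper-quartile scaling (-1.83) and with quantile normalization (-1.49), and in PC3M without PC3M replicate 2 (-2.46) and with quantile normalization (-1.19). CEBPA and MYB lay lower in EaHy than in HEK293 by -2.69 ± 1.06 and -1.74 ± 0.69 and did not pass (limma adjusted p = 0.14 and 0.15). Some differences passed in a single alternative: CEBPA in EaHy and LMO2 in PC3M (-0.73) with only the 2 lines fitted, and MYB in PC3M with quantile normalization (1.77).

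Traces of U937 genes outside U937 gave a scale for the low values. ELANE, CTSG, PRTN3 and AZU1, granule proteins of neutrophils and their precursors, averaged 160 to 1230 FPKM in U937. EaHy replicate 1 held them at 0.137% to 0.578% of the U937 mean and HEK293 replicate 1 at 0.2% to 0.685%. In EaHy replicate 2 they reached at most 0.0763%, in HEK293 replicate 2 at most 0.0959%, and in the PC3M libraries at most 0.00845% and 0.287%. IKZF1, GFI1 and IRF8 in EaHy replicate 1 stood at 0.339%, 0.298% and 0.29% of their U937 mean, within the range of the granule genes of that library. The other 7 factors were above that range there, with RUNX1 at 37.4%, LYL1 at 13.4% and LMO2 at 11.5%. CEBPE stood at 3.49% (only 0.145 FPKM, as its U937 mean was 4.17), SPI1 at 2.83% (2.74 FPKM), CEBPA at 0.861% (1.15 FPKM) and MYB at 0.85% (1.01 FPKM). In HEK293 replicate 1, SPI1, IKZF1, LYL1 and CEBPE stood at 0.392% to 0.609%, within its range. The other 6 were above it: RUNX1 at 10.3%, GFI1 at 4.54%, IRF8 at 3.38%, CEBPA at 3.23%, MYB at 2.08% and LMO2 at 0.962%. Above the highest granule gene were 4 factors in EaHy replicate 2, 7 and 4 in the PC3M libraries and 9 in HEK293 replicate 2. Some of these were near 0 in FPKM: CEBPE at 0.00451 and IKZF1 at 0.0556 in HEK293 replicate 2, GFI1 at 0.03 and IKZF1 at 0.0145 in PC3M replicate 1. Others were not, as CEBPA at 9.35 and 5.64 FPKM in these libraries. A place above the granule genes is therefore not a sign of expression by itself. What these traces come from was not tested.

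**Figure D3:**
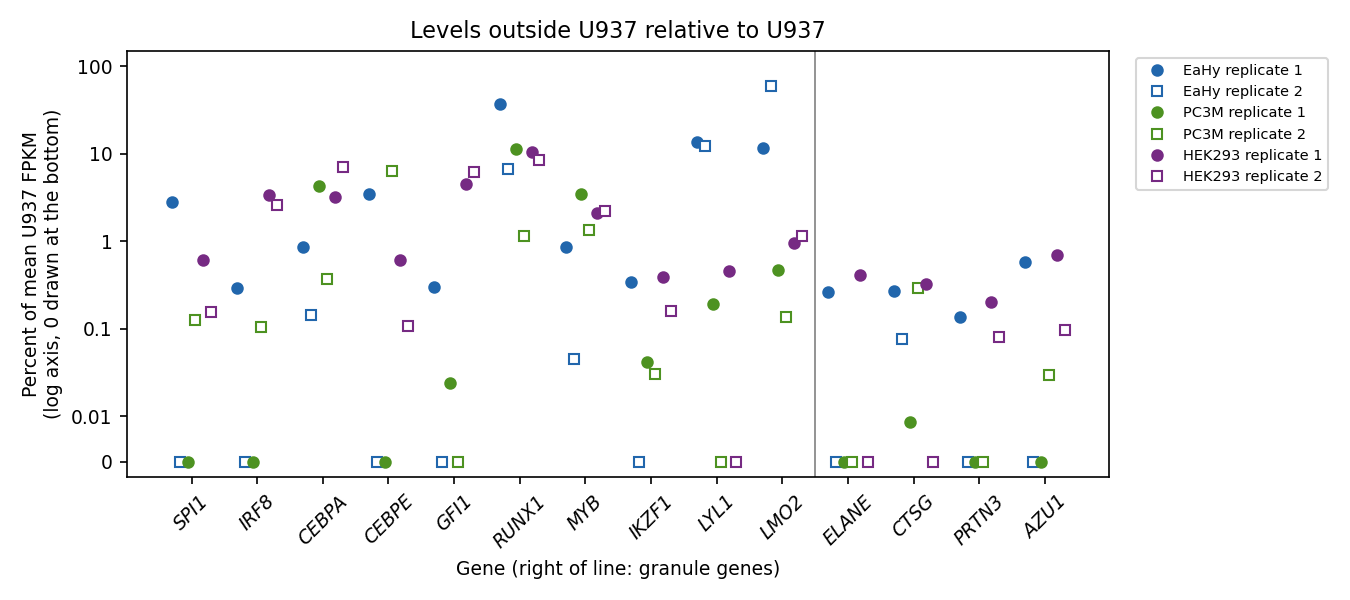
Level of the 10 factors and of 4 granule genes in each library outside U937, as a percent of the mean U937 FPKM, on a log axis with values of 0 drawn at the bottom. LYL1 and LMO2 in EaHy lie between 11.5% and 59.8%, and GFI1 and IRF8 in HEK293 between 2.61% and 6.15%. RUNX1 lies between 1.15% and 37.4% over all these libraries, and CEBPA in HEK293 at 3.23% and 6.99%.

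Among the closest relatives of the 10 factors, RUNX2 and RUNX3 were higher in U937. Of 21 such genes, 15 were tested, and in U937 against HEK293 2 were higher and 1 lower (4.47% and 10.6% of all genes), with a median log2 difference of 0.16, against -0.22 over all genes. RUNX2 and RUNX3, the other Runt domain factors, were these 2. RUNX2 was listed at 9.6 and 7.28 FPKM for U937 and at most 0.603 elsewhere, and was higher by 3.33 ± 0.45 against HEK293 and 3.82 ± 0.45 against EaHy (limma adjusted p = 0.002 and 0.0012). RUNX3 was listed at 10.6 and 22.3 FPKM for U937, 0.218 and 0 for EaHy, 0 and 0.137 for PC3M and 2.6 and 2.26 for HEK293, and was higher by 2.45 ± 0.53 against HEK293 (limma adjusted p = 0.015). All 3 RUNX genes were thus highest in U937, and RUNX3, like GFI1 and IRF8, was next highest in HEK293. CEBPB, a C/EBP factor used in many tissues, was listed at 20.1 and 25.7 FPKM for U937 and 3.4 to 33.3 in the other lines, with overlap. CEBPD stood at 0.522 and 0.232 FPKM in U937 and 31.8 and 2.56 in PC3M, and was lower in U937 than in PC3M by -3.52 (limma adjusted p = 0.039). TAL1, the closest relative of LYL1, was at most 0.332 FPKM in all 8 libraries, and GFI1B and IRF4 were at most 0.259 and 0.185. IKZF2, a relative of IKZF1, reached the filter through HEK293 alone, at 0.624 and 0.757 FPKM, and was at most 0.121 FPKM elsewhere. IRF9 was higher in EaHy than in HEK293 by 2.91 (limma adjusted p = 0.013). CEBPB, TAL1, GFI1B and IRF4 were chosen after their values were seen. In U937 against EaHy and PC3M, 3 and 6 of 15 relatives were higher (5.95% and 17.2% of all genes) and 1 was lower in each (6.77% and 4.57%). In EaHy and PC3M against HEK293, 1 and 0 were higher (4.55% and 2.39% of all genes) and 2 and 6 lower (9.8% and 25.3%).

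Among genes whose proteins work with the 10 factors, FLI1 was high in U937 and EaHy. Of 15 such partner genes, all tested, 2 were higher and 2 lower in U937 against HEK293, with a median log2 difference of 0.14; 4.47% and 10.6% of all genes were called higher and lower. FLI1, an ETS factor of blood and endothelium, was listed at 26.9 and 32.9 FPKM for U937, 19.9 and 15.6 for EaHy, and at most 0.28 in PC3M and HEK293. It was higher by 5.31 ± 0.51 in U937 and 4.57 ± 0.51 in EaHy against HEK293 (SE, n = 2, limma adjusted p = 0.00067 and 0.0012), and like LYL1 and LMO2 it was low in PC3M and HEK293. ERG, a related ETS factor, was listed at 26.8 and 16.3 FPKM for EaHy and 1.56 and 2.06 in U937, and was lower in U937 than in EaHy by -3.22 ± 0.47 (limma adjusted p = 0.0029). GATA2, a GATA factor of progenitors and endothelium, was at 9.43 and 3.72 FPKM in EaHy and 5.51 and 7.51 in HEK293 but 0.755 and 0.0326 in U937, lower in U937 than in HEK293 by -3.08 ± 0.62 and than in EaHy by -2.99 ± 0.62 (limma adjusted p = 0.011 and 0.016). JUN was lower in U937 than in HEK293 by -3.76 ± 0.67 (limma adjusted p = 0.0067). TCF4, an E protein, was higher in EaHy than in HEK293 by 2.49 and lower in U937 than in EaHy by -2.54 (limma adjusted p = 0.027 and 0.026), and the coactivator EP300 was lower in PC3M than in HEK293 by -3.75 (limma adjusted p = 0.02). The E proteins TCF3 and TCF12 and the adaptor LDB1 were present in every library, at 0.797 FPKM or more, and TCF12 was higher in U937 than in PC3M by 3.52 ± 0.77 (limma adjusted p = 0.019). TCF3 and LDB1 were chosen after their values were seen. In U937 against EaHy, 0 partners were higher and 4 lower (5.95% and 6.77% of all genes), and against PC3M 5 and 0 (17.2% and 4.57%). In EaHy against HEK293, 3 were higher and 0 lower (4.55% and 9.8% of all genes), and in PC3M 0 and 5 (2.39% and 25.3%).

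**Figure D4:**
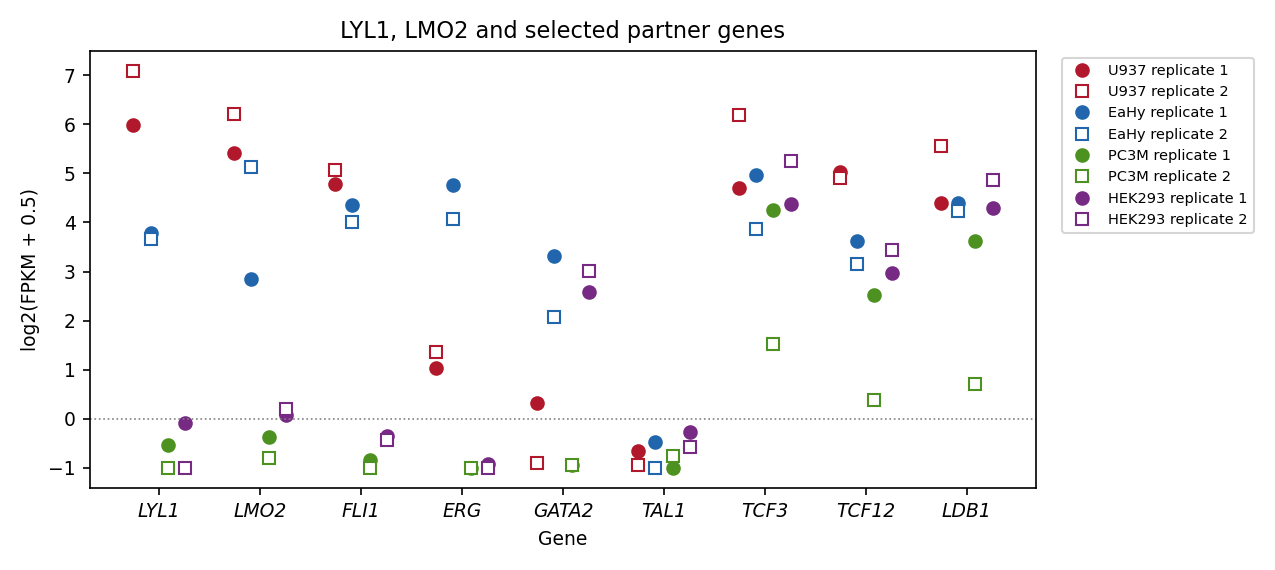
log2(FPKM + 0.5) of LYL1, LMO2 and 7 partner or related genes in each library, coloured by line, with filled circles for replicate 1 and open squares for replicate 2. LYL1, LMO2 and FLI1 are high in U937 and EaHy, ERG is highest in EaHy, and TAL1 lies under 0 in all 8 libraries.

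Myeloid genes known as targets of PU.1 and C/EBP factors were higher in U937 in part. Of 22 such genes, 16 were tested, and 14 were higher and 0 lower than in HEK293 (4.47% and 10.6% of all genes), with a median log2 difference of 4.57. Of the 16, 4 passed the filter through U937 alone (FCGR1A, CYBB, BTK and MPO) and LCN2 through PC3M alone, so the counts are a description. CTSG and ELANE, granule proteases, were listed at 1180 and 1280 and at 501 and 904 FPKM for U937 and at most 3.95 FPKM elsewhere, and were higher than in HEK293 by 9.69 ± 1.21 and 9.02 ± 1.03 (limma adjusted p = 0.0015 and 0.0011). PRTN3, another granule protease, and ITGB2, the shared chain of the leukocyte integrins, were higher by 8.06 ± 0.63 and 7.55 ± 0.59 (limma adjusted p = 0.00046 and 0.00046). Other classical targets were low: CSF1R stood at 0.46 and 0.703 FPKM in U937, ITGAM at 0.386 and 0.693, and MPO at 0.696 and 0.866. The granule genes LTF, LCN2, CAMP and BPI, of which LTF and CAMP are among those known to depend on CEBPE, were at most 0.961 FPKM in U937. CSF1R, ITGAM, MPO, LTF, LCN2, CAMP and BPI were chosen after their values were seen. Against EaHy and PC3M, 12 and 13 targets were higher in U937 (5.95% and 17.2% of all genes) and 0 and 1 lower (6.77% and 4.57%). In EaHy against HEK293 2 were higher and 0 lower (4.55% and 9.8% of all genes), among them CD68, a lysosomal protein of macrophages, by 3.37 ± 0.88 (limma adjusted p = 0.038), and in PC3M 1 was higher and 1 lower (2.39% and 25.3% of all genes). LCN2 was listed at 10.3 and 2.65 FPKM for PC3M and at most 0.11 elsewhere, and VAV1 was lower in PC3M than in HEK293 by -2.07 (limma adjusted p = 0.033).

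Factors of other blood lineages were mostly low. Of 16 erythroid, megakaryocyte and lymphoid factors, 12 were tested, of which U937 against HEK293 called 3 higher and 2 lower (4.47% and 10.6% of all genes; list median 0.04). Of the 12, 4 reached the filter through U937 alone (KLF1, NFE2, EBF1 and PRDM1) and 3 through HEK293 alone (GATA3, LEF1 and FOXP3), so these counts and differences are a description. NFE2 and KLF1, factors of megakaryocytes and red cells, were listed at 0.941 and 1.88 and at 1.05 and 1.75 FPKM for U937 and at most 0.216 FPKM elsewhere. LEF1, a Wnt pathway factor, was listed at 7.89 and 12.6 FPKM for HEK293 and at most 0.217 elsewhere, and GATA3, a T cell factor, at 2.62 and 3.63 FPKM for HEK293 and at most 0.257 elsewhere. Against EaHy and PC3M, 4 and 5 of the 12 were higher in U937 (5.95% and 17.2% of all genes) and 0 lower (6.77% and 4.57%). In EaHy and PC3M against HEK293 0 were higher (4.55% and 2.39% of all genes) and 3 and 4 lower (9.8% and 25.3%). Among 30 other myeloid and progenitor factors, all tested, U937 against HEK293 called 6 higher and 2 lower (4.47% and 10.6% of all genes; list median 0.57). Of the 30, IRF5 reached the filter through U937 alone, and MAF and ZBTB16 through HEK293 alone. IRF5, an interferon regulatory factor of macrophages, was listed at 14.2 and 18.9 FPKM for U937 and at most 0.202 elsewhere, and MAF at 12 and 15.7 FPKM for HEK293 and at most 0.471 elsewhere. ETS1 and ETV6, further ETS factors, were higher in U937 than in HEK293 by 4.93 ± 0.65 and 3.41 ± 0.64 (limma adjusted p = 0.0018 and 0.0081). KLF2 and MECOM, both used by endothelium, were lower in U937 than in EaHy by -4.99 ± 0.65 and -4.84 ± 0.58 (limma adjusted p = 0.0019 and 0.0012). Of these 30, 5 were higher and 2 lower in U937 against EaHy (5.95% and 6.77% of all genes), and 14 and 0 against PC3M (17.2% and 4.57%). In EaHy against HEK293 3 were higher and 4 lower (4.55% and 9.8% of all genes), and in PC3M 0 and 11 (2.39% and 25.3%).

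Across the 8 libraries, the 45 pairs among the 10 factors had correlations of log2(FPKM + 0.5) from 0.47 to 0.99, with a median of 0.86, a description in which replicates of a line are not independent. The highest was GFI1 with IRF8, both second highest in HEK293, and LYL1 with LMO2 and SPI1 with IKZF1 stood at 0.97. CEBPA with LMO2 was the lowest. Genes with the profile most like SPI1 were SELPLG, GNA15 and FCGR2B (Pearson r = 0.995, 0.993 and 0.991 over 8 libraries). For GFI1 they were GPR124, CELF2 and SYK, for IRF8 COLQ, RASGRP2 and NCALD, and for IKZF1 GTSF1, CLECL1 and LAMP5. LYL1 was nearest to ACSL5, LAPTM5 and GAB3, and LMO2 to GAB3, ARSD and MFNG. For CEBPA they were IMPA2, SRPK1 and PPP1R3F, for CEBPE BATF, CEACAM21 and ADORA3, for MYB SERPINB1, SORL1 and PTPN6, and for RUNX1 TRERF1, LAT and IFITM2, the last at r = 0.97, the weakest likeness of the 10.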

How the data were processed

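RNA of 8 libraries was analysed, 2 for each of 4 cell lines. Per the submitters' processing notes, cutadapt, TopHat2 2.0.11 and Cufflinks 2.2.1 were used with build hg19; the gene annotation is not given in the sources used here. The authors deposited FPKM per gene symbol, 1 column per library, with no further scaling stated, so counts and depth are unknown and no counting intervals are given. The library kit is not stated to keep strand: genes on the opposite strand overlap CEBPA, MYB and IKZF1 in GENCODE 29, and their reads cannot be told apart.

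The tests used log2(FPKM + 0.5) values and limma 3.58.1 under R 4.3.3; the added 0.5 understates the change of low genes. A gene was tested where 2 or more libraries reached 0.5 FPKM (16295 of 23615 genes), in a model with a term per line over all 8 libraries and a variance prior that follows the expression level. Tests were two-sided, and p-values were adjusted by Benjamini-Hochberg within each of 5 comparisons. With 2 libraries per line, p-values measure the spread between these libraries, which may be technical. The code was tested on simulated data. Members and gene lists were chosen with earlier results of these data known. The rule for named genes takes the 10 members, up to 4 called genes with the largest changes per list and comparison, or the 2 of highest mean FPKM where none was called, and the 3 genes with the highest correlation per member; the text gives those closest to the members, and says which others were chosen after their values were seen. Some genes of the lists are not reported here. Replicate numbers were not taken as pairs. Alternatives were other pseudocounts, filters, scalings and priors, a replicate block, fits of only the lines compared, fits without each library (the spread of the remaining one being taken from the other lines) and a fit without EaHy replicate 2 and both PC3M libraries, which are rich in replication histone RNA.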

Additional observations from a re-analysis of the deposited data

How the results depend on the processing

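Of 50 differences (10 factors in 5 comparisons), 34 were called, 20 of these in every alternative in which the factor was tested, and none of the 34 changed sign. CEBPE and IKZF1 were not tested when either U937 library was left out, and the U937 calls of IKZF1 are among the 20. Leaving out a library moved the number of factors higher in U937 between 6 and 10 against HEK293, 5 and 9 against EaHy, and 6 and 10 against PC3M. The numbers in EaHy against HEK293 ran from 0 to 2 higher and 0 to 2 lower, and in PC3M from 0 to 0 higher and 0 to 2 lower. In EaHy, 1 factor was lower with upper-quartile scaling, 1 with quantile normalization and 1 without the 3 histone-rich libraries; with quantile normalization 1 was higher in PC3M (MYB) and 1 lower. In U937 without those libraries, 10 were higher than in HEK293 and 7 than in EaHy.

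Some differences that were not called changed sign. In EaHy against HEK293 these were SPI1 (-0.75), CEBPE (-0.04) and RUNX1 (-0.33) without EaHy replicate 1, and IKZF1 without EaHy replicate 2 (0.06), HEK293 replicate 1 (0) or the 3 histone-rich libraries (0.06). In PC3M against HEK293, quantile normalization turned SPI1 (0.23), CEBPA (0.08), IKZF1 (0.33), LYL1 (0.35), RUNX1 (0.75) and LMO2 (0.48), upper-quartile scaling RUNX1 (0.07), and a pseudocount of 0.1 MYB (0). Without PC3M replicate 1 MYB was -0.55, without PC3M replicate 2 CEBPE was -0.04, LYL1 0 and RUNX1 0.20, and without HEK293 replicate 1 LYL1 was 0.23 and MYB -0.02. Over the fits leaving out a library, these values ran in EaHy up to 1.94 for SPI1 and 1.67 for RUNX1 (without EaHy replicate 2) and down to -0.25 for IKZF1, and in PC3M down to -0.69 for LYL1 and -1.49 for RUNX1 and up to 0.58 for MYB and 0.57 for CEBPE. The cause was not tested.

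With a replicate block the numbers of factors called were 9, 8 and 10 in U937 against HEK293, EaHy and PC3M, and 2 higher and 2 lower in EaHy, and 0 and 2 in PC3M. The CEBPA call against HEK293 was the only one lost. The replicate differences of U937 and HEK293 correlated at 0.33, and RMRP was lower in replicate 2 of both (648 and 12.3 FPKM; 1130 and 39.7 FPKM), while the other pairs of lines correlated at -0.15 to 0.1. Not every pair passed 0.1 and the labels name no shared batch, so the numbers were not taken as pairs; whether U937 and HEK293 libraries shared handling was not tested.

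Over all genes, the numbers called higher and lower were 728 and 1734 in U937 against HEK293 (282 to 1248 and 347 to 2353 over the alternatives), 970 and 1103 against EaHy (345 to 1613 and 471 to 1765), 2809 and 745 against PC3M (488 to 4786 and 167 to 2038), 742 and 1597 in EaHy against HEK293 (231 to 1426 and 225 to 2516), and 390 and 4127 in PC3M against HEK293 (38 to 1283 and 147 to 6729). Scaling moved the balance: with quantile normalization the share of calls that were higher went from 29.6% to 44.2%, 46.8% to 45.7%, 79% to 49.9%, 31.7% to 50.2% and 8.63% to 46.7% in the 5 comparisons, and the median of all genes went from -1.26 to 0 in PC3M against HEK293 and from 0.94 to 0.06 in U937 against PC3M.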
